A study of Mus musculus with 23 samples.

Results

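Lungs of mice that inhaled bacterial lipopolysaccharide (LPS) and were then treated with native human alpha1-antitrypsin (AAT) were compared with lungs of mice that breathed clean air. The comparison asks which inflammatory transcripts stood above the clean-air level when LPS was followed by native AAT. It rests on 8 of the 23 RNA-seq libraries of the series, chosen by their labels: 5 of LPS with native AAT (replicates 4101 to 4105) and 3 of clean air (replicates 2101, 2102 and 2105). A further 5 libraries of LPS without AAT (replicates 1101 to 1105) are given beside them. All mice were male Balb/c animals of an age that the labels do not state, and each library is whole lung RNA of 1 mouse. Exposure to clean air or to an aerosol of 0.21 mg/ml LPS lasted 10 min and was repeated on 3 days. Native AAT was injected into the peritoneum at 4 mg/kg, 1 h after every exposure, and the experiment ended 6 h after the last injection. Saline was the other injection named for the study, but the labels do not tie it to single mice of the air or LPS group. A group of air with native AAT was not analysed here, so every difference from air is that of LPS and AAT together.

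LPS is a lipid of the outer membrane of Gram-negative bacteria. It is handed by the LPS-binding protein (Lbp) and Cd14 to the receptor Tlr4 with its partner Ly96, which signals through Myd88 to the NF-kB transcription factors and through a further adaptor to interferon genes. In the lung, macrophages and epithelium answer with chemokines that draw neutrophils and monocytes and with antimicrobial and acute phase proteins. AAT is a plasma serpin that blocks neutrophil elastase, and mice make their own forms of it from the Serpina1 genes.

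Against air, lungs of LPS with native AAT held 677 genes that were higher (3.95% of 17148 tested) and 287 that were lower (1.67%), 5.62% in all, by edgeR's quasi-likelihood test with Benjamini-Hochberg adjustment at an adjusted p under 0.05. Of the higher genes, 282 were up at least 2-fold and 56 at least 4-fold. Of the lower genes, 54 and 12 were down by as much. The median log2 fold change was 0.84 over the higher genes, -0.57 over the lower genes and -0.01 over all genes. The libraries of the 2 groups did not overlap at 13.2% of genes, 6.95% higher and 6.24% lower. Protein-coding genes made up 662 of the higher and 277 of the lower calls. The shares of 3.95% and 1.67% are the background for the counts of list members against air given below. Because the samples are whole lung, more cells of a type and more RNA per cell cannot be told apart in any of these differences. The p-values cover the variation among these 23 mice only.

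**Figure D1:**
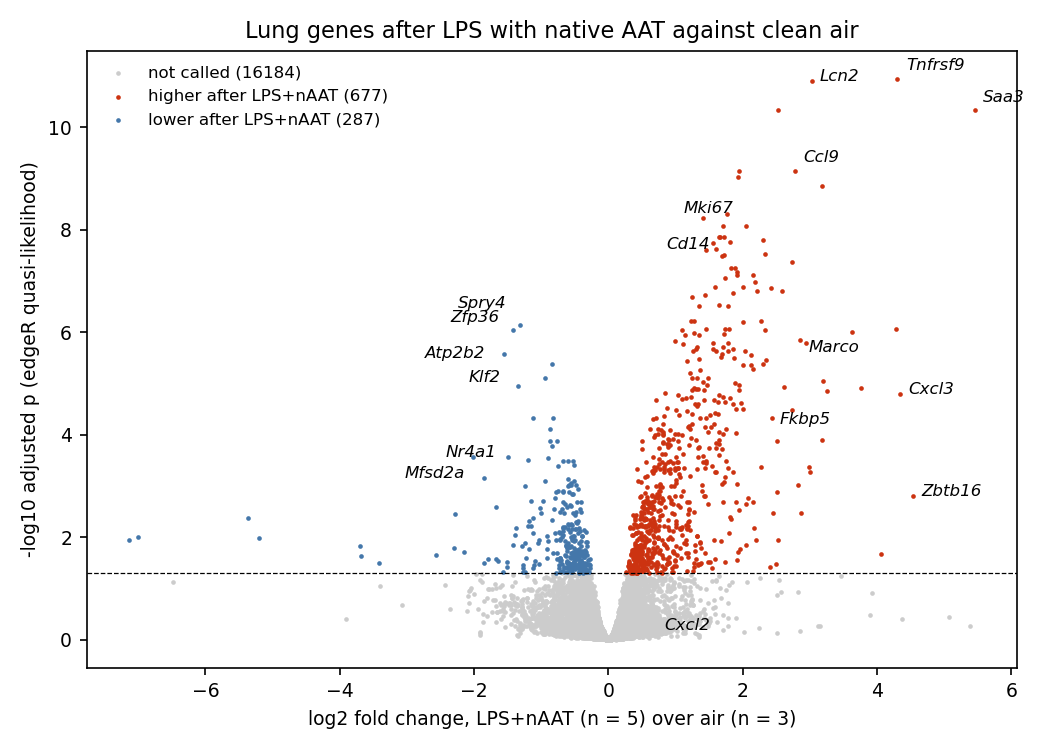
Each point is 1 of 17148 genes, with its log2 fold change of LPS with native AAT over air on the x axis and the negative log10 of its edgeR adjusted p on the y axis. The dashed line is an adjusted p of 0.05; the 677 higher genes (red) reach past a log2 fold change of 5 at Saa3, and the 287 lower genes (blue) include Zfp36, Spry4, Klf2 and Nr4a1.

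The air libraries held 26.5 to 30.4 M reads counted to genes, those of LPS with native AAT 21.4 to 41.4 M and those of LPS alone 19.7 to 33.8 M. No 2 libraries held identical counts. Markers of lung were high in all groups, with means in air and in LPS with native AAT of 14816 and 14209 CPM (reads per 1000000 counted to genes, scaled by TMM) for the surfactant gene Sftpc and 3195 and 3106 CPM for Ager of alveolar type 1 cells. Transcripts of liver were at a few CPM and uneven among the air libraries. Alb, made by hepatocytes, stood at 0.83, 2.5 and 7.75 CPM in air replicates 2101, 2102 and 2105 and at 0.394 to 0.907 CPM in the treated group. Of the 11 liver genes, 5 were called lower, 2 without air replicate 2105, with Alb at a log2 fold change of -2.31 ± 0.58 and an adjusted p of 0.0163. Without air replicate 2105 Alb was not called (adjusted p = 0.312), nor was Apoa2 (0.138). The mouse AAT gene Serpina1c had 0, 0.746 and 0.869 CPM in the air libraries and 0 in all 5 treated libraries, whereas Serpina1b stood at 3.17 to 8.24 and 4.09 to 7.46 CPM and was not called. Reads of these near-identical paralogs may be split between them. In 8 libraries of other groups, 3 of oxidized and 5 of recombinant AAT, the mitochondrial gene mt-Nd6 stood at 3.39% to 4.5% of mt-Nd5, against 0.34% to 1.14% in the 13 libraries reported here. Those 8 libraries enter through the shared estimate of the spread, the scaling and the filter on low counts, and a fit of the air, LPS and native AAT groups alone called 585 genes higher and 213 lower.

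Among genes that sense LPS, those of 2 receptors and a carrier were higher and that of Tlr4 was not called. Cd14, which hands LPS to the receptor, was at 25.3, 31.9 and 28.2 CPM in air and 113, 80.6, 81.2, 101 and 96.2 CPM after LPS with native AAT, a 3.31-fold rise (log2 fold change 1.73 ± 0.16 SE, adjusted p = 3.15e-08). All 5 treated libraries lay above all 3 air libraries. Tlr2, a receptor for bacterial lipoproteins, was at 36, 34.2 and 35.3 CPM and 56.1, 55.4, 55.5, 61.1 and 59.1 CPM, with no overlap (log2 fold change 0.71 ± 0.10, adjusted p = 4.73e-05). Lbp rose by less (log2 fold change 0.55 ± 0.12, adjusted p = 0.00442), a call that ended without air replicate 2101 (adjusted p = 0.0524). Tlr4 itself stood at 28.7 to 34.7 CPM in air and 22.3 to 42.3 CPM after treatment and was not called (adjusted p = 0.855), and neither were Ly96 (0.413) and Myd88 (0.065). Of 19 genes of LPS sensing and its adaptors, 4 were higher and 0 lower, with a median log2 fold change of 0.06. Between 2 and 5 were higher over the alternative fits, fewest without air replicate 2101. The fourth was Irak3, a brake on the pathway, whose call (adjusted p = 0.0266) ended in 9 of those fits, each of the 3 without 1 air library among them.

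Some NF-kB genes were higher than air, and most were not called. Of 22 subunits, inhibitors and feedback genes, 5 were higher, 17 were not called, and the median log2 fold change was 0.16. Over all genes tested, 3.95% were higher. The inhibitor gene Nfkbia, whose transcript is itself an NF-kB target, was at 124 to 198 CPM in air and 127 to 162 CPM in the treated lungs (log2 fold change -0.19 ± 0.12 SE, adjusted p = 0.478), so the groups overlapped. Tnfaip3, a ubiquitin-editing brake on NF-kB, (log2 fold change 0.09 ± 0.08 SE, adjusted p = 0.687), and Relb, a subunit (log2 fold change 0.19 ± 0.17 SE, adjusted p = 0.662), were not called either. The rise of smallest adjusted p was that of Tnip3, an inhibitor induced by LPS, from 1.19, 1.26 and 1.13 to 3.36, 3.89, 2.98, 4.28 and 3.76 CPM (log2 fold change 1.60 ± 0.26 SE, adjusted p = 1.42e-04). Its treated libraries all exceeded its air libraries. The subunit Nfkb2 was called at a small change (log2 fold change 0.33 ± 0.10, adjusted p = 0.0431), and lost the call in 10 of the alternative fits, without each of the 3 air libraries among them. The other 3 were Tnfaip2, a TNF-induced gene (0.55 ± 0.11), the survival gene Birc3 (0.37 ± 0.09) and the inhibitor gene Nfkbie (0.43 ± 0.11). Without air replicate 2102, 2 genes of the list were higher, and neither Birc3 (0.0508) nor Nfkbie (0.0602) was called, as was the case without air replicate 2101 (0.0523 and 0.0847).

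Chemokines for neutrophils rose by very different amounts. Cxcl3, a ligand of Cxcr2 on neutrophils, was at 1.77, 1.1 and 0.718 CPM in air and 18.1, 20.1, 18.7, 37.4 and 27.9 CPM after LPS with native AAT, 20.3-fold higher (log2 fold change 4.34 ± 0.54 SE, adjusted p = 1.60e-05). All treated libraries stood far above the highest air library. Cxcl5, an epithelial ligand of the same receptor, rose from 0.902, 0.486 and 0.642 to 4.79, 3.46, 4.9, 6.51 and 4.5 CPM (log2 fold change 2.82 ± 0.51 SE, adjusted p = 9.50e-04). Cxcl1 was at 4.22, 2.37 and 2.65 CPM in air and 7.39, 4.22, 7.33, 7.37 and 8.88 CPM in the treated lungs (log2 fold change 1.19 ± 0.27 SE, adjusted p = 0.00608). Here the groups met, since treated replicate 4102 stood at the level of air replicate 2101, and without air replicate 2102 the gene was not called (adjusted p = 0.0636). Cxcl2, the third ligand of the same cluster, was at 2.13, 1.85 and 2.23 CPM in air and 3.06, 2.87, 3.31, 3.8 and 3.17 CPM after treatment. Every treated library lay above air, but the gene was not called (log2 fold change 0.64 ± 0.31 SE, adjusted p = 0.298). The receptor gene Cxcr2 rose (log2 fold change 1.19 ± 0.25 SE, adjusted p = 0.00359), and the platelet chemokine Pf4 was called at 0.71 (adjusted p = 0.035), which ended without air replicate 2101 (0.255) or 2102 (0.154) or treated replicate 4104 (0.0852) or 4105 (0.0679). Of these 9 genes 5 were higher and 0 lower (median log2 fold change 0.71), and 3 without air replicate 2102.

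The promoters of Cxcl1 and Cxcl3 are shown because these neighbours on chromosome 5 rose to different extents while holding the same NF-kB consensus near the start. The windows are RefSeq's, on GRCm38.p6, from 250 bases before to 50 after the gene start, 5′ to 3′ on the gene's strand, and capitals mark the match. Cxcl1 lies at chr5:90890995-90891294, plus strand, and Cxcl3 at chr5:90785851-90786150, plus strand.
Cxcl1: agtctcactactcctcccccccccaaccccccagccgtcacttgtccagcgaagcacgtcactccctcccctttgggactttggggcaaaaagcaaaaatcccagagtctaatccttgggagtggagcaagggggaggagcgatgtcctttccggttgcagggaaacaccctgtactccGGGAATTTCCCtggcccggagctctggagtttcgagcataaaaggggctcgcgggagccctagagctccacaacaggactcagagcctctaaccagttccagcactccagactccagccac
Cxcl3: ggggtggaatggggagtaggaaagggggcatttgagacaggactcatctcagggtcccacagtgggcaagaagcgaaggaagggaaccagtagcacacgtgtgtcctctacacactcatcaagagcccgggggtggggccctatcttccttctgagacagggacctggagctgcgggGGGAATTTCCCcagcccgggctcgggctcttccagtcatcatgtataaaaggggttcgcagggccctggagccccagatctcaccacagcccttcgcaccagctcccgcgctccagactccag
Both hold the same 11 bases, 2 overlapping matches of the consensus on the 2 strands, which begin 71 bases before the start in Cxcl1 and 73 in Cxcl3. The consensus was found on either strand in 3 of 8 promoters of the neutrophil chemokine list (37.5%), in 12 of 22 windows of the NF-kB list (54.5%), in 4 of 32 windows of the acute phase list (12.5%), and in 4.51% of all 32851 windows. A match of letters is no measurement of binding.

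**Figure D2:**
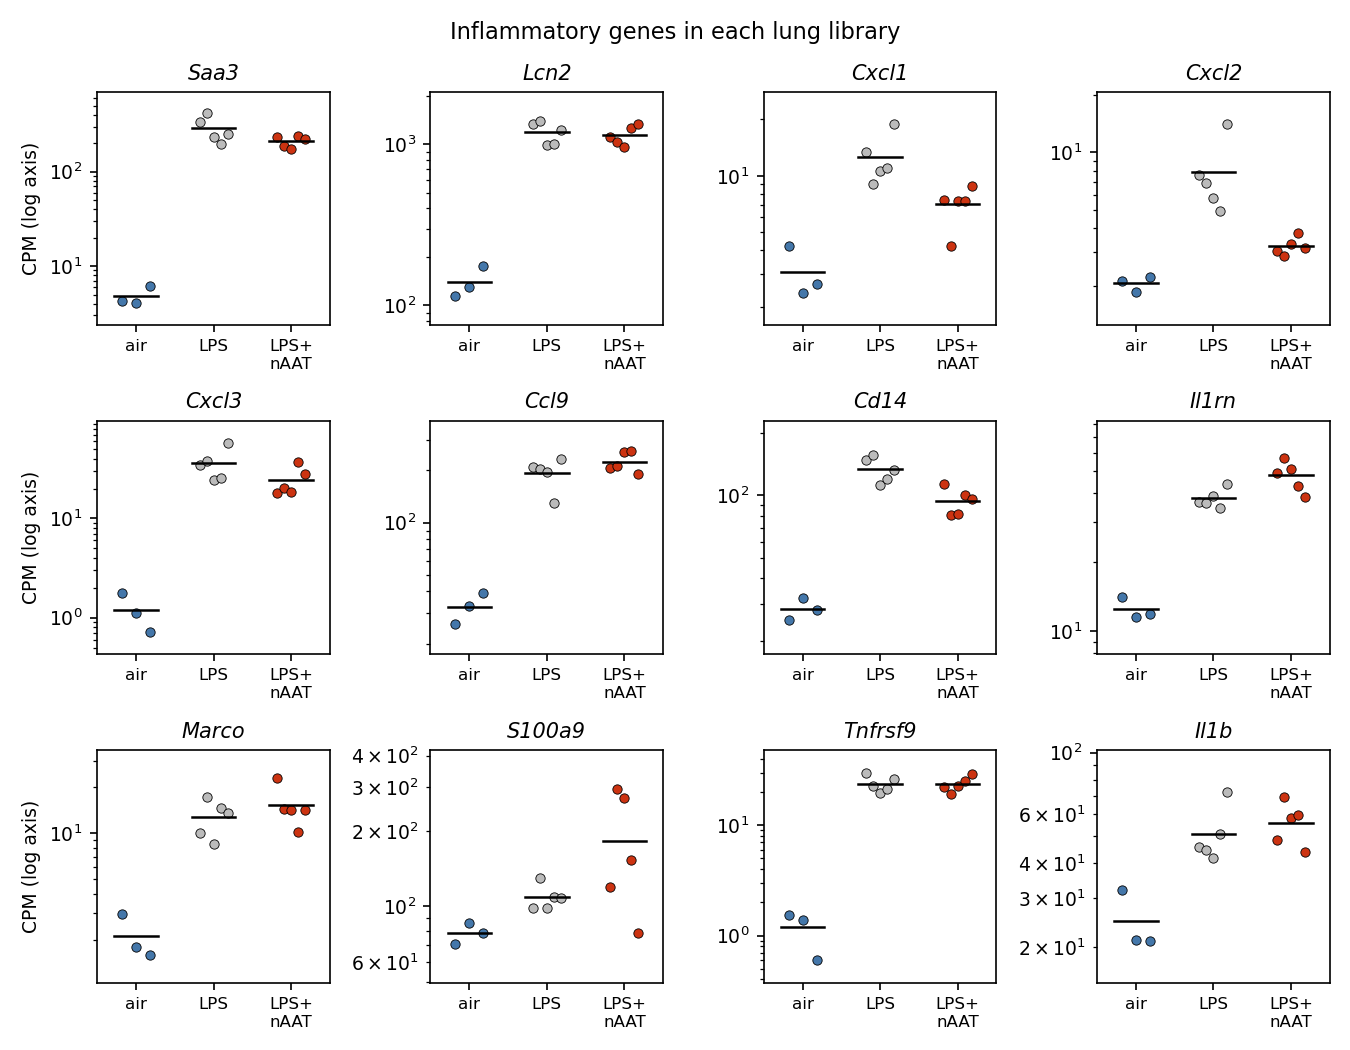
CPM of 12 inflammatory genes in each library on log axes, for air (blue, n = 3), LPS alone (grey, n = 5) and LPS with native AAT (red, n = 5); the line is the group mean. Saa3, Lcn2, Cxcl3, Ccl9, Cd14, Il1rn, Marco, Tnfrsf9 and Il1b show treated libraries above all air libraries, Cxcl2 sits between air and LPS alone, and S100a9 spreads from the air level to far above it.

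CC chemokines, which draw monocytes and lymphocytes, rose in most cases. Of 16 tested, 10 were higher, 7 without air replicate 2101, and 0 lower, with a median log2 fold change of 1.50. Ccl9, a ligand of Ccr1 made by macrophages, was at 26.1, 32.8 and 39 CPM in air and 207, 212, 254, 258 and 192 CPM after LPS with native AAT (log2 fold change 2.78 ± 0.20 SE, adjusted p = 7.08e-10). Its groups lay far apart, as did those of Ccl3, another ligand of Ccr1, at 1.16, 1.23 and 1.62 and 4.91, 3.65, 5.83, 5.66 and 4.41 CPM (log2 fold change 1.86 ± 0.33 SE, adjusted p = 5.37e-04). Ccl2, the main ligand of Ccr2 on monocytes, went from 0.289, 0.519 and 0.567 to 1.42, 1.37, 1.93, 2.95 and 2.01 CPM (log2 fold change 2.05 ± 0.42 SE, adjusted p = 0.00228). Ccl6, which also binds Ccr1, rose 2.14-fold (log2 fold change 1.10 ± 0.15 SE, adjusted p = 2.02e-05). The ligands of Ccr4 on T cells, Ccl17 (1.42 ± 0.24) and Ccl22 (1.15 ± 0.16), rose as well. Ccl4 was called at 1.28 (adjusted p = 0.0385), with groups that overlapped and a call that ended without air replicates 2101 or 2102 or any 1 of treated replicates 4102 to 4105 (adjusted p = 0.0548 to 0.235). The eosinophil chemokine Ccl11 (-0.69, adjusted p = 0.15) and Ccl5 (0.42, 0.38) were not called. Among ligands of Cxcr3 on T cells, Cxcl10 rose from 1.37, 1.26 and 1.36 to 2.97, 4.92, 3.06, 4.56 and 4.41 CPM (log2 fold change 1.58 ± 0.23 SE, adjusted p = 3.77e-05) and Cxcl9 by a log2 fold change of 2.15 ± 0.43, both without overlap, while Cxcr3 itself was not called.

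Of 20 tested cytokine genes 4 were above air, where 3.95% of all genes tested were higher. Il1b, the product of activated myeloid cells, stood at 32, 21.3 and 21.1 CPM in air and 48.5, 69.1, 58.3, 59.8 and 44.1 CPM in the treated lungs (log2 fold change 1.17 ± 0.23 SE, adjusted p = 0.0021), with no overlap. Csf2, the growth factor of alveolar macrophages, rose from 3.72, 2.4 and 3.52 to 10.3, 7.07, 9.05, 9.36 and 7.97 CPM (log2 fold change 1.45 ± 0.25 SE, adjusted p = 3.26e-04). Tnf, a short-lived early transcript of the LPS response, was at 2.09, 1.62 and 1.74 CPM and 2.79, 4.59, 4.11, 3.94 and 3.92 CPM (log2 fold change 1.09 ± 0.26 SE, adjusted p = 0.00899). Its groups did not overlap, but the call ended without air replicate 2102 (adjusted p = 0.0643). Il6 was near 0 in all groups, at 0.151 to 0.289 CPM in air and 0.0419 to 0.236 CPM after treatment, and a difference was not detectable at this depth (adjusted p = 0.909). Il1a was not called (0.678), and Il10, Il23a, Csf3 and Ifng had too few counts to be tested. In all, 4 of 20 tested cytokine genes were higher, 2 without air replicate 2102, and 1 was lower. The fourth higher gene was Csf1, the macrophage growth factor (0.39 ± 0.10, adjusted p = 0.0167), not called without air replicate 2102 (0.0515) or 2105 (0.128). The lower gene was the death ligand Tnfsf10 (-0.53 ± 0.15, adjusted p = 0.0333), a call that ended without air replicate 2101 (0.109) or 2102 (0.17) or treated replicates 4101, 4102, 4104 or 4105 (0.0503 to 0.0805).

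Receptors and antagonists of cytokines also gave rises and no falls. Of 29 tested, 9 were higher and 0 lower (median log2 fold change 0.37). Tnfrsf9 (4-1BB), a costimulatory receptor, was at 1.55, 1.4 and 0.605 CPM in air and 22.4, 19.1, 22.7, 25.4 and 29 CPM after LPS with native AAT, 19.8-fold higher (log2 fold change 4.31 ± 0.23 SE, adjusted p = 1.13e-11). Its highest air library lay far below its lowest treated library. Il1rn, the natural antagonist of interleukin-1, rose from 14.1, 11.5 and 11.8 to 49, 57.1, 50.8, 43.1 and 38.6 CPM (log2 fold change 1.93 ± 0.14 SE, adjusted p = 9.22e-10), again with no overlap. Il1r2, a decoy receptor of interleukin-1 found on neutrophils, went from 0.866, 0.973 and 0.567 to 3.36, 9.47, 4.65, 3.42 and 3.66 CPM (log2 fold change 2.61 ± 0.35 SE, adjusted p = 1.19e-05). Treated replicate 4102 was the highest of these libraries for Il1r2. The beta chains of the Csf2 receptor, Csf2rb (1.11 ± 0.13, adjusted p = 1.69e-06) and its near-identical neighbour Csf2rb2 (1.14 ± 0.13, adjusted p = 1.15e-06), rose alike, and reads may be shared between them. The interleukin-6 receptor subunits Il6ra (0.37, adjusted p = 0.403) and Il6st (-0.02, 0.958) were not called. Of 23 genes of the interleukin-6, JAK and STAT pathway, the kinase Pim1 (0.77 ± 0.13, adjusted p = 4.57e-04) and the secreted glycoprotein Lrg1 (1.0 ± 0.19, adjusted p = 8.81e-04) were higher and none lower, and the feedback inhibitor Socs3 stood at 0.29 (adjusted p = 0.317). Among all genes tested, 3.95% were higher.

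Acute phase and antimicrobial genes included the largest rise of the comparison. Saa3 (ENSMUSG00000040026, chr7:46711998-46715700, minus strand, GRCm38), the serum amyloid A made outside the liver, was at 4.26, 4.02 and 6.16 CPM in air and 232, 184, 175, 239.7 and 223 CPM after LPS with native AAT. This 43.9-fold rise (log2 fold change 5.46 ± 0.32 SE, adjusted p = 4.62e-11) was the largest among called genes of an average of at least 1 on the log2 CPM scale whose groups did not overlap. Lcn2 (ENSMUSG00000026822, chr2:32384633-32388252, minus strand), a siderophore-binding protein that withholds iron from bacteria, was far more abundant, at 114, 130 and 175 CPM and 1107, 1035, 969, 1257 and 1335 CPM (8.16-fold, log2 fold change 3.03 ± 0.17 SE, adjusted p = 1.23e-11). Both genes separated the groups completely. Wfdc21, a small secreted protein of neutrophils and epithelium, rose from 1.16, 2.21 and 2.76 to 17.5, 15.4, 25.1, 18.5 and 15.8 CPM (log2 fold change 3.17 ± 0.24 SE, adjusted p = 1.40e-09), and its relative Wfdc17 by a log2 fold change of 2.74 ± 0.25. The plasma protein genes Orm1 (2.95 ± 0.34) and Orm2 (2.99 ± 0.52), which are near-identical copies, Hpx, which binds heme (1.65 ± 0.25), and Cp, a copper ferroxidase (0.99 ± 0.19), were higher too. Pigr, which carries IgA across epithelium, rose from 79.7, 142 and 74 to 464, 418, 527, 687 and 555 CPM (log2 fold change 2.43 ± 0.24 SE, adjusted p = 1.37e-07). Chil1, a chitinase-like protein already abundant in air lung, went from 841, 809.9 and 989.5 to 2503, 2090, 2167, 2623 and 2632 CPM (log2 fold change 1.45 ± 0.13 SE, adjusted p = 2.44e-08). In all, 17 of 32 tested genes were higher and 0 lower, with a median log2 fold change of 1.12, and 15 to 19 were higher over the alternative fits. Not called were Saa1 (1.48, adjusted p = 0.193), Ltf (0.60, 0.796) and Ptx3 (-0.02, 0.988).

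Neutrophil markers rose in part, with much spread between mice. Of 25 tested, 10 were higher and 0 lower, with a median log2 fold change of 0.91. Their summed level was 588 to 603 CPM in air and 816 to 1277 CPM in the treated lungs. Clec4d, a C-type lectin receptor of neutrophils and macrophages, rose from 5.66, 5.97 and 6.05 to 17.3, 22.3, 22.7, 18.4 and 15.7 CPM (log2 fold change 1.71 ± 0.14 SE, adjusted p = 8.43e-09). The formyl peptide receptor gene Fpr2 rose from 28.1, 20.4 and 25.8 to 60.1, 56.6, 61.6, 68.5 and 53.1 CPM (log2 fold change 1.27 ± 0.14 SE, adjusted p = 6.03e-07) and the lectin gene Clec4e by a log2 fold change of 1.35 ± 0.15, with groups apart in both. S100a9, a subunit of calprotectin and abundant in neutrophils, was at 71, 85.5 and 78.2 CPM in air and 119, 294, 272, 153 and 78.1 CPM after treatment, so that replicates 4102 and 4103 stood at over 3 times air and replicate 4105 at the air level. It was not called (log2 fold change 1.23 ± 0.37 SE, adjusted p = 0.0553), but passed without treated replicate 4105 (0.00955) or 4101 (0.0385), with DESeq2's Wald test (0.0165) and with the stricter CPM filter (0.0453). Its partner S100a8 (1.15 ± 0.38, adjusted p = 0.0925) likewise passed without replicate 4105 (0.0195) and with DESeq2's Wald test (0.0452). Ly6g was near 0 (0.0361 to 0.416 CPM in air, 0.0303 to 0.966 CPM after treatment), and the granule genes Mpo, Elane and Ctsg had too few counts to be tested. Of 8 tested granule genes, Lcn2 and Chil3 were higher, and both are also made by other lung cells. Chil3 (1.0 ± 0.25, adjusted p = 0.0147) was not called without any 1 of the 3 air libraries (adjusted p = 0.052 to 0.0877).

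Macrophage genes were higher as well. Of 22 markers of alveolar macrophages, 13 were higher and 0 lower (median log2 fold change 0.60), and their summed level was 1591 to 1720 CPM in air and 2523 to 3031 CPM in the treated lungs. Marco, a scavenger receptor that binds bacteria, was at 2.96, 1.78 and 1.59 CPM in air and 23.1, 14.5, 14.2, 10.2 and 14.3 CPM after LPS with native AAT (log2 fold change 2.86 ± 0.32 SE, adjusted p = 1.39e-06). Ctsk, a lysosomal protease, rose from 24.4, 25.6 and 28.3 to 88.3, 108, 105, 106 and 95.5 CPM (log2 fold change 1.95 ± 0.14 SE, adjusted p = 7.08e-10). Itgax (CD11c, 1.25 ± 0.13, adjusted p = 2.01e-07), the lipase gene Lpl (1.25 ± 0.16, adjusted p = 7.94e-06) and the oxidized lipoprotein receptor gene Olr1 (1.31 ± 0.15, adjusted p = 2.14e-06) rose as well. Siglecf, a lectin that marks these cells in clean lung, was not called, at 20.4 to 26.5 and 18.8 to 26 CPM (adjusted p = 0.944). Of 29 markers of monocytes and other macrophages, 13 were higher and 1 lower (median 0.50). Adgre1, which encodes the F4/80 antigen, went from 27.2, 24.5 and 22 to 52.8, 59.3, 54.9, 69.2 and 56.5 CPM (log2 fold change 1.25 ± 0.17 SE, adjusted p = 1.31e-05), and Ms4a7 rose 3.0-fold (log2 fold change 1.58 ± 0.16 SE, adjusted p = 1.28e-07). The monocyte genes Ly6c2 (-0.04, adjusted p = 0.958) and Ccr2 (0.31, 0.57) were not called, and the one lower gene was Nr4a1, a nuclear receptor of patrolling monocytes that is also an immediate early gene.

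**Figure D3:**
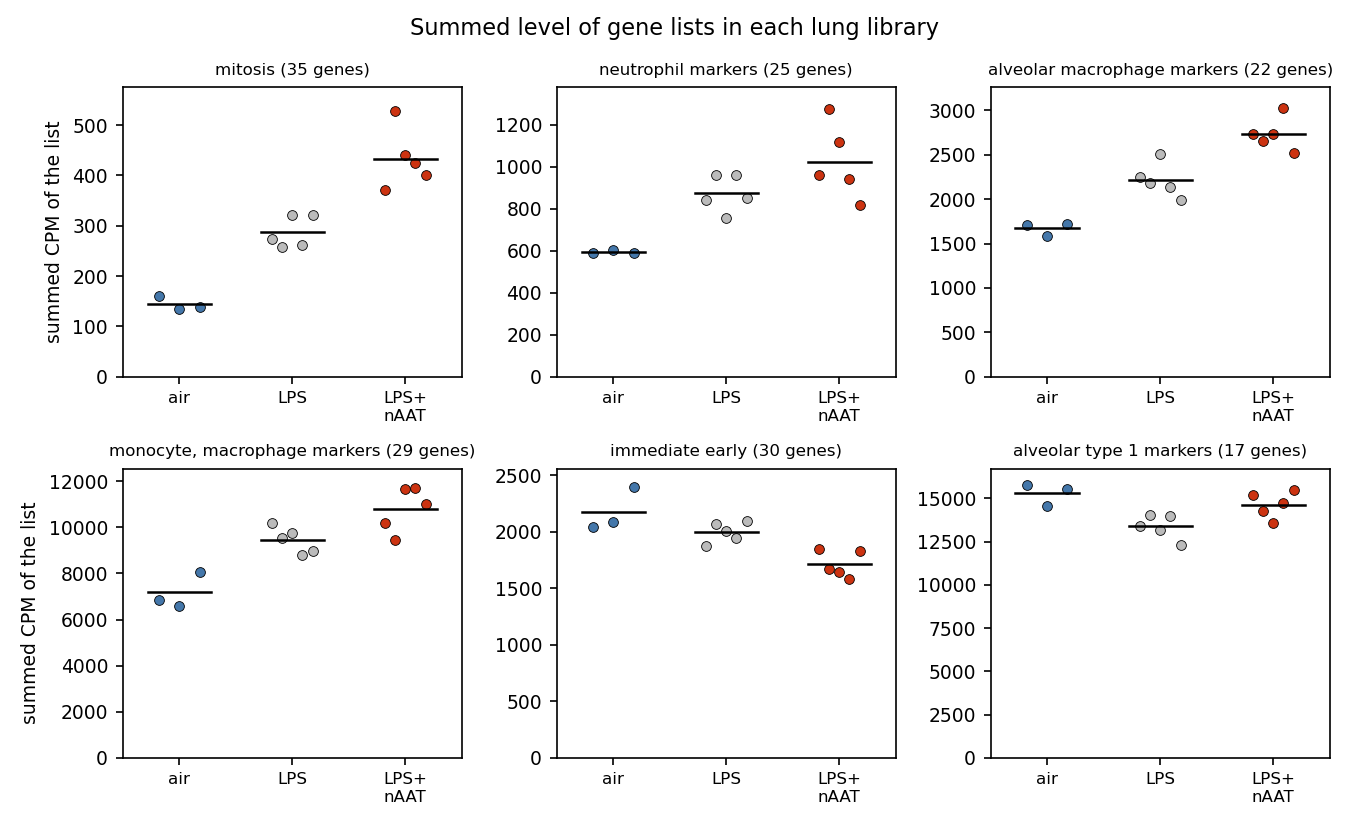
Summed CPM of the tested members of 6 gene lists in each library, on axes that start at 0, for air (blue), LPS alone (grey) and LPS with native AAT (red), with the group mean as a line. Summed mitosis genes were at 135 to 160.3 CPM in air and 371 to 528 CPM in LPS with native AAT, the macrophage and neutrophil lists also lay above air, and alveolar type 1 markers overlapped.

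Enzymes and complement of activated macrophages and epithelium were among the rises. Acod1, which makes the antibacterial metabolite itaconate, was at 0.253, 0.324 and 0.34 CPM in air and 2.33, 6.79, 3.06, 4.37 and 2.43 CPM after treatment (log2 fold change 3.62 ± 0.41 SE, adjusted p = 1.00e-06). Ch25h, an enzyme that makes an immune oxysterol, rose from 2.49, 3.21 and 5.03 to 20.8, 15.1, 14.3, 19 and 17.2 CPM (log2 fold change 2.27 ± 0.24 SE, adjusted p = 5.95e-07). Treated libraries lay above air for both. Cybb, the catalytic subunit of the phagocyte oxidase, rose 2.51-fold (log2 fold change 1.33 ± 0.18 SE, adjusted p = 1.25e-05) and Arg2, a mitochondrial arginase, 2.65-fold (log2 fold change 1.41 ± 0.11 SE, adjusted p = 5.80e-09). Of 25 such enzyme genes, 14 were higher, 7 without air replicate 2105, and 1 was lower: Nos2, the inducible nitric oxide synthase, from 12, 9.5 and 8.99 to 5.97, 8.01, 6.75, 6.22 and 8.03 CPM (log2 fold change -0.54 ± 0.16 SE, adjusted p = 0.0477). The Nos2 call ended in 10 alternative fits, without each of the 3 air libraries among them (adjusted p = 0.0554 to 0.335). Of 25 complement genes and receptors, 11 were higher and 0 lower (median 0.48). C3, the central component, rose from 823, 747 and 511 to 1292, 1726, 1889, 1692 and 1652 CPM (log2 fold change 1.25 ± 0.18 SE, adjusted p = 3.90e-05), its receptor gene C3ar1 from 3.46, 4.02 and 3.06 to 8.81, 11.8, 10.9, 13.5 and 10.9 CPM (log2 fold change 1.67 ± 0.14 SE, adjusted p = 1.41e-08), and factor B (Cfb) by a log2 fold change of 2.08 ± 0.41.

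Among proteases, adhesion molecules and genes of the BCL2 family, most calls were of higher genes. Mmp12, the macrophage elastase, went from 3.93, 5.58 and 7.11 to 14.1, 24.4, 19.9, 27.8 and 20.2 CPM (log2 fold change 1.94 ± 0.26 SE, adjusted p = 1.31e-05), with all treated libraries above air. The protease inhibitor genes Timp1 (1.30 ± 0.17, adjusted p = 1.29e-05), Slpi, which like AAT inhibits neutrophil elastase (0.87 ± 0.14, adjusted p = 1.52e-04), and Serpina3n, an inhibitor of cathepsin G (1.17 ± 0.14, adjusted p = 3.64e-06), rose. Of 31 proteases and inhibitors, 6 were higher and 1 was lower, which was Serpina1c. Of 17 adhesion genes, 6 were higher, 4 without air replicate 2105, among them the integrin gene Itgb2 (0.75 ± 0.13, adjusted p = 2.91e-04) and Cd44 (0.68 ± 0.12, adjusted p = 4.19e-04). The endothelial ligands Icam1 (0.37 ± 0.11, adjusted p = 0.0634), Vcam1 (0.27 ± 0.11, adjusted p = 0.203) and Sele (-0.64 ± 0.54, adjusted p = 0.633) were not called. Icam1 passed with DESeq2's Wald test (adjusted p = 0.0248), with the GC curve removed (0.0304), with the last digit as a replicate block (0.0482) and without treated replicate 4103 (0.029). Of 16 genes of the BCL2 family, 7 were higher and 0 lower, among them the 3 paralogs of the survival gene Bcl2a1, Bcl2a1a (1.23 ± 0.17, adjusted p = 1.85e-05), Bcl2a1b (1.59 ± 0.28, adjusted p = 5.26e-04) and Bcl2a1d (1.29 ± 0.18, adjusted p = 2.49e-05), whose reads may be shared. The death-promoting members Bak1 and Bbc3 were among the 7 as well, and 5 to 7 were higher over the alternative fits. Bak1 was not called without air replicates 2101 (0.116) or 2102 (0.111), nor Bbc3 without 2102 (0.147) or 2105 (0.12). Single treated libraries ended both calls too, 4101 and 4102 among them (0.0525 to 0.0941). Of 15 inflammasome genes 2 rose, the sensor gene Nlrp3 (0.73 ± 0.14, adjusted p = 0.00141) and Il1b. Of 21 prostaglandin and leukotriene genes, 4 were higher (Tbxas1, Ptgs1, Ptger4 and Pla2g7) and 1 lower (Ptges, the inducible prostaglandin E synthase, -0.50 ± 0.14, adjusted p = 0.0276). Ptger4 (0.0562), Pla2g7 (0.0955) and Ptges (0.171) were not called without air replicate 2105, and Ptges also not without air replicate 2101 (0.0996) or treated replicate 4103 (0.0682). The inducible cyclooxygenase gene Ptgs2 was not called (-0.25 ± 0.34, adjusted p = 0.789).

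Most interferon genes and all lymphocyte markers tested were not called. Of 33 type I interferon genes 4 were higher, 9 without treated replicate 4103, and 0 lower (median log2 fold change 0.40). The shares over all genes tested were 3.95% higher and 1.67% lower. Isg15, a ubiquitin-like protein, was at 6.1, 8.56 and 9.56 CPM in air and 16.5, 17.2, 13, 33.4 and 18.1 CPM after treatment (log2 fold change 1.28 ± 0.27 SE, adjusted p = 0.00318), and Ifit1, which binds viral RNA, at 12.8, 18.2 and 13.3 and 27.1, 27.2, 27.3, 52.3 and 30.4 CPM (log2 fold change 1.15 ± 0.26 SE, adjusted p = 0.00574). Treated replicate 4104 was the highest library for both. Ifit3 rose by less (0.71 ± 0.16, adjusted p = 0.00654). Zbp1, a nucleic acid sensor, had groups that overlapped and was called at 0.73 (adjusted p = 0.0467), a call lost without any 1 of the 3 air libraries or treated replicates 4102, 4104 or 4105 (adjusted p = 0.0576 to 0.189). The master regulator Irf7 (0.69 ± 0.23, adjusted p = 0.0925) and Mx1 (0.86 ± 0.32, adjusted p = 0.143) were not called. None of 19 interferon gamma GTPase and related genes passed in edgeR's test (median 0.17), with 4 at an unadjusted p under 0.05 and 0 called by DESeq2. The same held for 24 T and NK cell markers (median 0.18, 2 at an unadjusted p under 0.05, 0 by DESeq2) and 19 B and plasma cell markers (median -0.34, 0 and 0). Of 25 genes of antigen presentation, the protease gene Ctss (0.76 ± 0.16, adjusted p = 0.0029) and Tapbp (0.39 ± 0.10, adjusted p = 0.0194) were higher, the second not without air replicates 2102 (0.0818) or 2105 (0.102) or treated replicate 4102 (0.0536), and 4 of the 25 were called without treated replicate 4103.

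Genes of mitosis gave the largest share of rises among the 53 lists. Of 35 genes of mitosis, 33 were higher and 0 lower, with a median log2 fold change of 1.73, and 32 to 34 were higher in every alternative fit. Mki67, a protein of dividing cells, was at 14, 12.2 and 10.5 CPM in air and 41.7, 70.3, 50.3, 47.8 and 45 CPM after LPS with native AAT (4.16-fold, log2 fold change 2.06 ± 0.17 SE, adjusted p = 8.43e-09). Cdk1, the kinase that starts mitosis, rose from 3.93, 3.44 and 4.72 to 12.1, 14.6, 14.8, 12.9 and 12.4 CPM (log2 fold change 1.73 ± 0.15 SE, adjusted p = 1.41e-08). Bub1b, of the spindle checkpoint, rose from 6.03, 4.51 and 5.59 to 16.9, 21.6, 19.2, 17.1 and 16.1 CPM (log2 fold change 1.76 ± 0.14 SE, adjusted p = 4.94e-09). For each of these genes the lowest treated library was over 2 times the highest air library. The cyclin genes Ccna2 (1.92 ± 0.18) and Ccnb1 (2.21 ± 0.22), the topoisomerase gene Top2a (1.88 ± 0.17) and the kinase genes Plk1 (1.82 ± 0.17) and Aurka (1.56 ± 0.18) were higher by similar amounts. Of 31 genes of DNA replication and entry into S phase, 21 were higher and 0 lower, but by less (median 0.59), and 12 were higher without air replicate 2102 and 13 without treated replicate 4102. Among them was Rrm2, of ribonucleotide reductase, from 6.42, 5.68 and 5.48 to 15.4, 21.9, 18.9, 19 and 16.8 CPM (log2 fold change 1.65 ± 0.14 SE, adjusted p = 1.41e-08). Which cells divided was not measured.

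Promoters of 3 of the mitosis genes are shown because most of the list rose and its windows share short sequences. They are RefSeq windows of GRCm38.p6 with the same bounds, and capitals mark TTTGAA, the core of the cell cycle homology region that DREAM binds, and CCAAT, the NF-Y site, on either strand (TTCAAA and ATTGG on the other). Cdk1 lies at chr10:69352863-69353162, minus strand, Mki67 at chr7:135716330-135716629, minus strand and Bub1b at chr2:118597961-118598260, plus strand.
Cdk1: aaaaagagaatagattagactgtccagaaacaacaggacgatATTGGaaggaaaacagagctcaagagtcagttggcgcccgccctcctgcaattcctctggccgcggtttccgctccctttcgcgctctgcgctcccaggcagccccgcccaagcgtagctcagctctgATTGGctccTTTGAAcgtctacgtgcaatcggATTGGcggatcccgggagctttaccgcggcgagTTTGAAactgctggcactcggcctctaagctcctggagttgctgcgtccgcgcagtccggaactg
Mki67: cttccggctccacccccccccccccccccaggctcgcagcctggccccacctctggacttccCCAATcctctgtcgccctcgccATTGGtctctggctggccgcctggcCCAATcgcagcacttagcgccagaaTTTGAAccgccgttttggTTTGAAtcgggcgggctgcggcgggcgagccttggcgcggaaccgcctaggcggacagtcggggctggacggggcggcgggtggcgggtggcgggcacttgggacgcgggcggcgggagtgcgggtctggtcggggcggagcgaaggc
Bub1b: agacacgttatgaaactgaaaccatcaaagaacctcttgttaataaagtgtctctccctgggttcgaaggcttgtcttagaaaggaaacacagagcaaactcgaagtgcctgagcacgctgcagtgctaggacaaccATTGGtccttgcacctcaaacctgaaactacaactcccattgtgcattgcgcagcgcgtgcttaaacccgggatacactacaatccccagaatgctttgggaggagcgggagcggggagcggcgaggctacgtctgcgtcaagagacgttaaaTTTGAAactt
TTTGAA was present in 23 of 31 windows of the mitosis list (74.2%), in 3 of 29 of the replication list (10.3%) and in 17.9% of all 32851 windows. CCAAT was present in 24 of 31 (77.4%), 15 of 29 (51.7%) and 37.4%. The windows cover 30 of the 35 mitosis genes and 24 of the 31 replication genes, some with 2 start sites. These are descriptions of letters in the reference and no test was made.

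**Figure D4:**
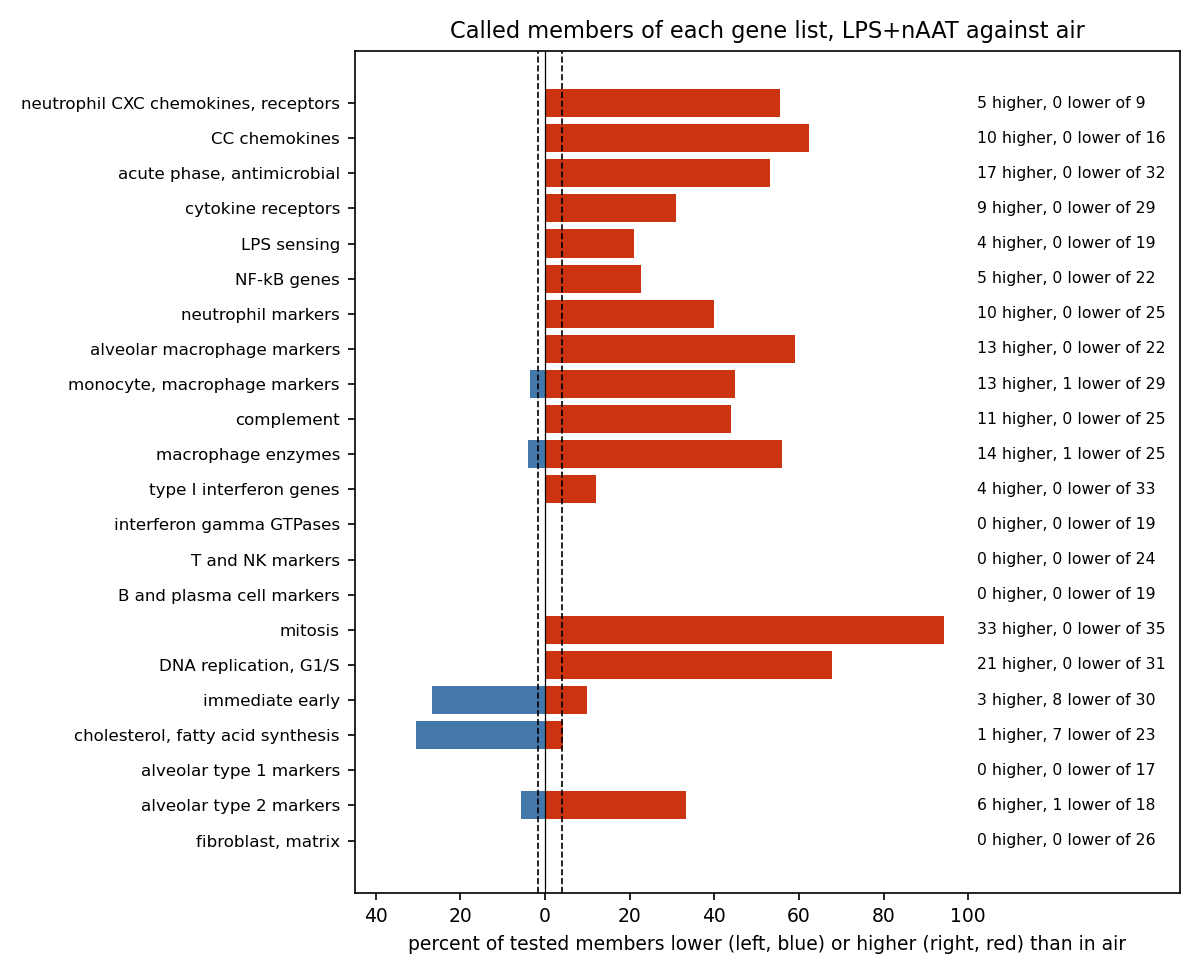
Percent of the tested members of each of 22 gene lists that were higher (red, to the right) or lower (blue, to the left) in LPS with native AAT than in air, with counts at the right. The dashed lines are the shares over all genes, 3.95% higher and 1.67% lower; mitosis, DNA replication and CC chemokine lists reach farthest to the right, and cholesterol synthesis and immediate early genes farthest to the left.

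Fewer genes were below the air level, among them Zfp36, Klf2 and Spry4. Zfp36 (ENSMUSG00000044786, chr7:28376784-28380253, minus strand, GRCm38), whose protein speeds the decay of inflammatory mRNAs such as that of Tnf, was at 233, 302 and 361 CPM in air and 108, 113, 95.8, 116 and 127 CPM after LPS with native AAT (2.67-fold lower, log2 fold change -1.42 ± 0.16 SE, adjusted p = 9.11e-07). Klf2, a transcription factor of quiescent endothelium and lymphocytes, was at 129, 149 and 169.9 and 67.7, 54.5, 61.1, 43 and 68.6 CPM (log2 fold change -1.34 ± 0.18 SE, adjusted p = 1.14e-05). Spry4, an inhibitor of growth factor signalling, was at 50.7, 55.1 and 50.6 and 18.8, 21.5, 22.4, 20.8 and 21.4 CPM (log2 fold change -1.31 ± 0.14 SE, adjusted p = 7.13e-07). The treated libraries of all 3 genes lay below every air library. Immediate early genes, which respond to stimuli within minutes, were lower in 8 and higher in 3 of 30 tested (median -0.23), with 5 to 9 lower over the alternative fits, and their summed level was 2044 to 2396 CPM in air and 1577 to 1845 CPM in the treated group. The lower ones included Nr4a1 (96.9, 50.9 and 44.7 and 23.3, 25.2, 19.9, 16.5 and 29 CPM, log2 fold change -1.49 ± 0.25 SE, adjusted p = 2.76e-04), the MAP kinase phosphatase gene Dusp1 (-1.13 ± 0.16, adjusted p = 4.74e-05) and Csrnp1 (-1.25 ± 0.23, adjusted p = 9.92e-04). Higher were Klf10 (0.77 ± 0.15, adjusted p = 0.00102), Myc (0.77 ± 0.15, adjusted p = 0.00124) and Ier5 (0.47 ± 0.12, adjusted p = 0.0196), the last not called without air replicate 2102 (0.199). Fos, of the AP-1 factor, was called (-0.57 ± 0.16, adjusted p = 0.033), but not without air replicate 2105 (0.225) or 2102 (0.0553) or treated replicates 4101, 4102 or 4105 (0.0579 to 0.0837). Egr1 was not called (-0.73 ± 0.31, adjusted p = 0.218). Of 12 tested genes of mRNA decay, Zfp36 was the 1 lower and Zc3h12a (regnase-1) the 1 higher (0.69 ± 0.12, adjusted p = 4.78e-04). With shares of 1.67% lower and 3.95% higher over all genes tested, 1 call each way says little about so short a list.

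Further large falls by the naming rule concerned varied functions. Cyp26b1, which degrades retinoic acid, was at 79.4, 87 and 41.2 CPM in air and 14.9, 15.1, 21.5, 2.9 and 3.47 CPM in the treated lungs (log2 fold change -2.57 ± 0.66 SE, adjusted p = 0.0227). Replicates 4104 and 4105 were the lowest, and the call ended without air replicate 2101 (0.0758) or 2102 (0.0899) and in the fits of the 3 groups (0.0731) and of the 2 groups alone (0.108). Mfsd2a, a transporter of lysophospholipids, was at 7.4, 9.05 and 7.37 and 3.15, 1.08, 2.14, 1.9 and 2.69 CPM (log2 fold change -1.86 ± 0.34 SE, adjusted p = 6.91e-04) and Atp2b2, a calcium pump of the plasma membrane, at 20.4, 28.7 and 18.5 and 7.82, 7.73, 8.51, 7.6 and 6.61 CPM (log2 fold change -1.56 ± 0.19 SE, adjusted p = 2.61e-06). Neither overlapped with air. The transporter gene Slco5a1 (-1.38 ± 0.31), the potassium channel gene Kcnj2 (-1.20 ± 0.20) and the lymphocyte activation marker Cd69 (-1.20 ± 0.27) were also lower. Areg, a ligand of the EGF receptor (-1.28 ± 0.32, adjusted p = 0.0147), was not called without air replicate 2101 (adjusted p = 0.255), the highest of the 3. Of 23 genes of cholesterol and fatty acid synthesis, 7 were lower, 4 without air replicate 2105, such as the sterol synthesis genes Hmgcs1 (-0.56 ± 0.11, adjusted p = 9.42e-04) and Msmo1 (-0.58 ± 0.11, adjusted p = 9.50e-04), and 1 was higher, the desaturase gene Scd1 (0.39 ± 0.12, adjusted p = 0.0437), whose call ended without any 1 air library (0.088 to 0.166) or without treated replicates 4101, 4104 or 4105 (0.093 to 0.0987). Of 26 genes of xenobiotic and retinoid metabolism, 4 were lower, Por, the electron donor of cytochromes P450 (-0.51 ± 0.09, adjusted p = 8.00e-04), and Fmo1, Adh7 and Aox3, which were not called without air replicate 2102 (adjusted p = 0.137, 0.317 and 0.132) or 2105 (0.108, 0.0853 and 0.0573). Single treated libraries ended these calls too, 4101, 4104 or 4105 that of Fmo1, any but 4104 that of Adh7 and 4102 that of Aox3 (0.0598 to 0.0961).

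Some of the largest rises were of genes outside the lists of cytokines and chemokines. Zbtb16 (ENSMUSG00000066687, chr9:48654297-48836222, minus strand), a zinc finger factor induced by glucocorticoids, was at 10.3, 8.5 and 7.86 CPM in air and 125, 259, 226, 226 and 195 CPM after LPS with native AAT (23.1-fold, log2 fold change 4.53 ± 0.83 SE, adjusted p = 0.00158). Fkbp5 (ENSMUSG00000024222, chr17:28399094-28517527, minus strand), a cochaperone of the glucocorticoid receptor, rose from 14.4, 13.8 and 11.1 to 48.8, 89.1, 65.1, 87.2 and 62.9 CPM (log2 fold change 2.43 ± 0.34 SE, adjusted p = 4.73e-05), and Hif3a, a subunit related to the hypoxia factors, from 3.43, 3.08 and 1.93 to 8.48, 15, 7, 10.8 and 8.42 CPM (log2 fold change 1.82 ± 0.39 SE, adjusted p = 0.00435). All 3 separated the groups. After LPS alone none of them was called against air in edgeR's test (adjusted p = 0.334, 0.143 and 0.663). In the direct comparison with LPS alone all 3 were higher with native AAT (log2 difference 3.17, 1.57 and 1.44, adjusted p = 0.0262, 0.0101 and 0.0367). The direct calls of Zbtb16 and Hif3a ended when single libraries were left out, LPS replicate 1104 among them (0.0939 and 0.0934). The wider list of 22 glucocorticoid-responsive genes had members called in both directions, with 7 higher and 4 lower (median 0.11). Tsc22d3 (GILZ), a standard target, stood at -0.07 (adjusted p = 0.927), and Lcn2 and Il1r2 of that list are also genes of the LPS response. Of 19 clock genes, 4 were higher (Arntl, Nfil3, Bhlhe40 and Bhlhe41), 1 without air replicate 2105, and Arntl was not called without air replicate 2102 (0.202). The 1 lower clock gene was Per3 (-0.65 ± 0.17, adjusted p = 0.0224), which was not called without air replicate 2101 (0.164) or 2102 (0.15) or treated replicates 4101 or 4105 (0.0596 and 0.0602). Lemd1, of the nuclear envelope protein family, rose from 0.289, 0.324 and 0.0378 to 3.57, 5.11, 7.08, 3.9 and 2.49 CPM (log2 fold change 4.29 ± 0.47 SE, adjusted p = 8.64e-07), and the kallikrein gene Klk10 from 0.722, 2.6 and 2.12 to 19.9, 15.3, 8.34, 23.5 and 17 CPM (log2 fold change 3.20 ± 0.40 SE, adjusted p = 8.91e-06). Ly6i, a surface protein of the Ly6 family, was called at 3.77 (adjusted p = 1.23e-05), with replicate 4104 far above the other 4, and at 3.16 without it.

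Among structural cells of the lung, calls were found mainly in the alveolar type 2 list. None of 17 alveolar type 1 markers or 26 fibroblast and matrix genes passed in edgeR's test, with 2 and 3 at an unadjusted p under 0.05 and 0 called by DESeq2 in both lists. Of 7 mesothelial markers 0 passed in edgeR's test, with 2 at an unadjusted p under 0.05 and 1 called by DESeq2. Markers of heart muscle (11 genes), skeletal muscle (6) and fat (10) had 0 calls in either test, with 0, 1 and 1 at an unadjusted p under 0.05. Summed type 1 markers were 14573 to 15755 CPM in air and 13571 to 15456 CPM in the treated group. Of 18 alveolar type 2 markers 6 were higher, 2 without air replicate 2102 and 3 or 4 without air replicate 2101 or treated replicates 4101 or 4104, and 1 was lower, the transcription factor gene Etv5 (-0.29 ± 0.09, adjusted p = 0.0476), a call lost without any 1 of the 8 libraries (0.0527 to 0.299). Sftpd, a surfactant collectin that binds LPS and microbes, rose from 1098, 897 and 1236 to 2220, 1994, 2030, 2284 and 2237 CPM (log2 fold change 1.0 ± 0.11 SE, adjusted p = 1.47e-06), while Sftpc (-0.06, adjusted p = 0.897) was not called. Of 21 endothelial markers 1 was higher, Car4 (0.69 ± 0.11, adjusted p = 1.00e-04), which alveolar macrophages also express, and 1 was lower, Klf2. These counts are near the shares over all genes tested, 3.95% higher and 1.67% lower, and say little about the list. Of 22 airway markers 3 were higher and 0 lower. The higher ones were Pigr, the mucin gene Muc1 (0.58 ± 0.11, adjusted p = 0.00106), which is also among the type 2 markers, and the mucin gene Muc4 (0.90 ± 0.25, adjusted p = 0.0314), not called without air replicates 2101 (0.0612) or 2105 (0.184) or treated replicates 4101, 4102 or 4104 (0.054 to 0.0788).

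Set beside LPS alone, few inflammatory genes differed by the test. LPS alone and LPS with native AAT are set against the same 3 air libraries, so the 2 contrasts are not independent, and the difference was tested directly between their 5 libraries each. LPS alone gave 465 genes higher than air (2.71%) and 288 lower (1.68%), 4.39% in all. The direct comparison gave 77 genes higher with native AAT (0.449%) and 25 lower (0.146%), 0.595% in all, and ran from 20 to 144 genes when 1 library was left out. Of 32 acute phase genes, 15 were above air after LPS alone and 17 after LPS with native AAT, and 0 were called between the 2 groups in edgeR's test (7 at an unadjusted p under 0.05) or in any alternative fit. Of 16 CC chemokines, 11 and 10 were above air, and 0 were called between the groups (2 at an unadjusted p under 0.05, 1 by DESeq2, median log2 difference -0.15). Their summed level was 466 to 719 CPM after LPS alone and 705 to 931 CPM with native AAT. For Ccl6 every library of LPS with native AAT lay above those of LPS alone. It missed the threshold (0.50, 95% interval 0.24 to 0.76, adjusted p = 0.05855 in edgeR's test). Saa3 was at 339, 414, 234, 196 and 248 CPM after LPS alone, which overlapped the treated group (log2 difference of LPS with native AAT from LPS alone -0.44, 95% interval -0.86 to -0.02, adjusted p = 0.312). Lcn2 (-0.06, 95% interval -0.33 to 0.20, adjusted p = 0.858) and Tnfrsf9 (-0.01, 95% interval -0.32 to 0.29, adjusted p = 0.979) had differences near 0 with narrow intervals. For Il1b (0.13, 95% interval -0.27 to 0.53, adjusted p = 0.794) and Tnf (-0.40, 95% interval -0.83 to 0.02, adjusted p = 0.363) the intervals were wider. A p above the threshold does not show that a gene was equal in the 2 groups.

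For some genes of this response the level with native AAT lay between air and LPS alone. Cxcl2 was at 7.62, 6.91, 5.79, 4.92 and 14 CPM after LPS alone, all above the treated group, and was the one member of its list that passed (-1.28, 95% interval -1.80 to -0.76, adjusted p = 0.0186). That call ended without treated replicate 4103 (adjusted p = 0.0522) and in the fit of the 2 groups alone (0.0642). Cxcl1 stood at 13.3, 9.06, 10.6, 11 and 18.9 CPM after LPS alone, also above every treated library, but missed the threshold (-0.85, 95% interval -1.28 to -0.41, adjusted p = 0.0585). Cd14 missed it as well (-0.51, 95% interval -0.76 to -0.25, adjusted p = 0.0553), and so did Cxcl3 (-0.56, 95% interval -1.27 to 0.14, adjusted p = 0.456) and Cxcl5 (-0.68, 95% interval -1.39 to 0.03, adjusted p = 0.358). Among 22 NF-kB genes 9 were above air after LPS alone and 5 after LPS with native AAT. The direct comparison called 1 of them lower, Tnfaip3 (-0.32, 95% interval -0.46 to -0.17, adjusted p = 0.0367), and 0 to 4 over the alternative fits. The Tnfaip3 call ended without LPS replicates 1102, 1103 or 1104 or any 1 treated library (0.0552 to 0.13). Nfkb2 (-0.33, 95% interval -0.50 to -0.16, adjusted p = 0.0553) and Nfkbia (-0.44, 95% interval -0.65 to -0.22, adjusted p = 0.0512) missed the threshold. Nfkbia is not one of the genes between air and LPS alone. Its estimate with native AAT lay slightly below air, a difference that was not called.

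Other genes stood farther from air with native AAT than with LPS alone. Summed alveolar macrophage markers were at 1988 to 2511 CPM after LPS alone and 2523 to 3031 CPM with native AAT. Summed macrophage enzymes stood at 1031 to 1175 and 1190 to 1339 CPM, and immediate early genes at 1875 to 2092 and 1577 to 1845 CPM. These sums did not overlap, whereas those of neutrophil and of monocyte and macrophage markers did. Differences between sums were not tested. The summed mitosis genes were at 258 to 322 CPM after LPS alone, below every library of LPS with native AAT, and 16 of 35 passed as higher in the direct comparison, from 1 to 28 over the alternative fits. Ccna2 was at 5.93, 6.81, 9.6, 5.51 and 8.85 CPM after LPS alone (1.02, 95% interval 0.72 to 1.32, adjusted p = 0.00138), and its call held in each of them. Over all genes tested, the direct comparison called 0.449% higher. Of the immune lists, it called 1 of 25 complement genes, 1 of 25 macrophage enzyme genes and 1 of 29 cytokine receptor genes higher. It also called 2 of 29 monocyte and macrophage markers, 1 of 22 alveolar macrophage markers and 1 of 25 neutrophil markers. In all, 7 genes were higher. They were C3ar1 of complement (0.64, 95% interval 0.41 to 0.87, adjusted p = 0.0101), the monocyte and macrophage markers Clec4n (0.49, 95% interval 0.29 to 0.70, adjusted p = 0.0233) and Spp1, the alveolar macrophage marker Olr1, the neutrophil marker Fpr2 (0.49, 95% interval 0.26 to 0.73, adjusted p = 0.0391), the arginase gene Arg2 (0.43, 95% interval 0.24 to 0.62, adjusted p = 0.0303) and Il18r1, a chain of the IL-18 receptor (0.33, adjusted p = 0.0391). The C3ar1 call ended in fits of the 3 groups (0.0516) and the 2 groups (0.0861) alone, and that of Clec4n without LPS replicates 1101, 1102 or 1104 or treated replicates 4103 or 4104 (0.0526 to 0.0816). Those of Spp1, Olr1, Fpr2, Arg2 and Il18r1 also ended when single libraries were left out, LPS replicate 1104 among them (0.0737, 0.118, 0.14, 0.11 and 0.14). Zfp36 was at 209, 299.9, 193, 290 and 243 CPM after LPS alone, where it was not called against air (log2 fold change -0.27, adjusted p = 0.383), and was lower with native AAT (-1.14, 95% interval -1.43 to -0.85, adjusted p = 3.49e-04). Spry4 was at 34.1, 28.2, 43.2, 39.4 and 33.1 CPM after LPS alone and also lower with native AAT (-0.77, 95% interval -1.03 to -0.50, adjusted p = 0.00773). The calls of Zfp36 and Spry4 held in every alternative run.

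**Figure D5:**
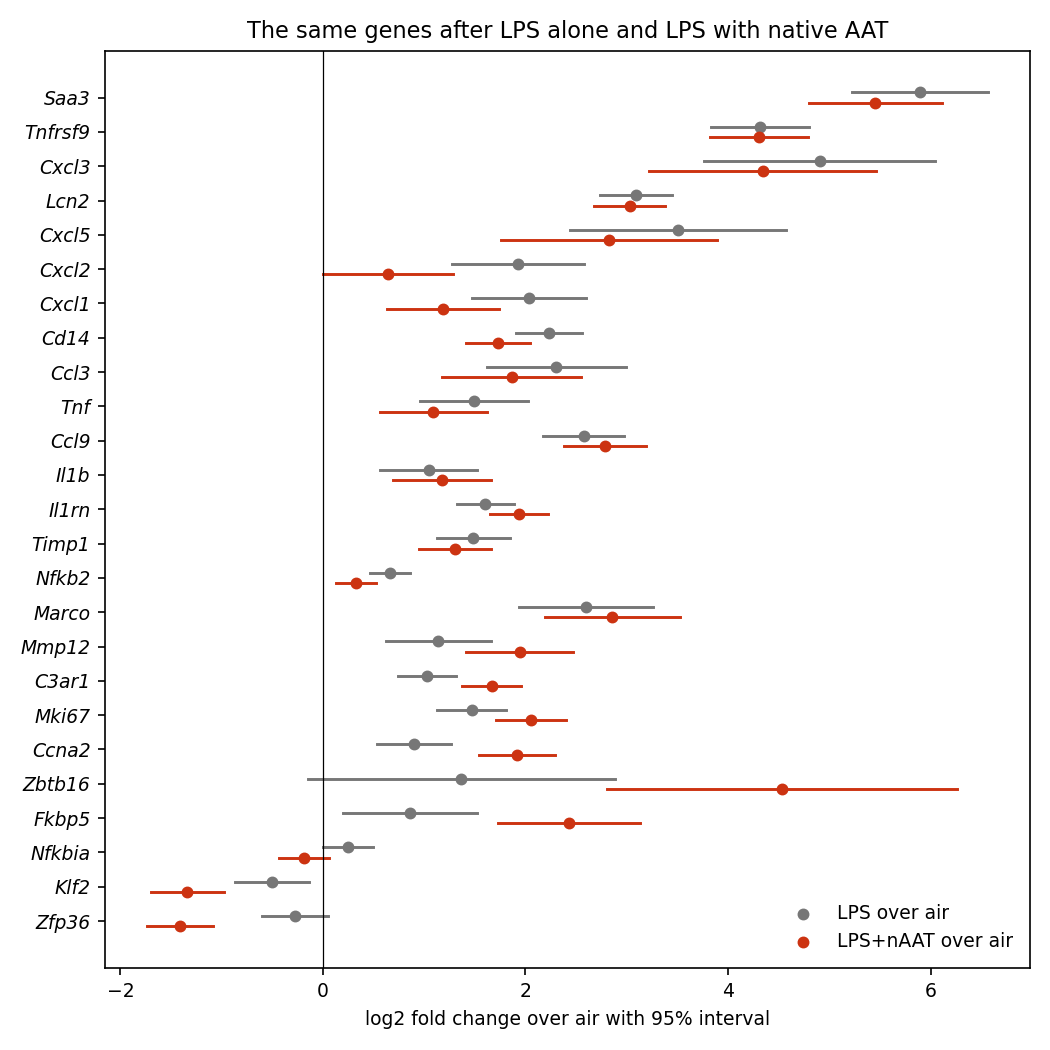
Log2 fold change over air of 25 genes after LPS alone (grey) and LPS with native AAT (red), with 95% intervals as horizontal lines; both are set against the same 3 air libraries. Tnfrsf9, Lcn2, Ccl9 and Il1b lie at similar positions, Cxcl2 and Cxcl1 lie nearer to 0 with native AAT, and Ccna2, Zbtb16, Fkbp5, Klf2 and Zfp36 lie farther from 0.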

How the data were processed

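Whole lung RNA of 23 male Balb/c mice was sequenced, and groups were taken from the sample titles. The deposited values are counts of reads per Ensembl gene in 1 table for the series. Per the submitters' processing notes, the authors made them with STAR 2.4.0.1 and HTSeq 0.11.1 on GRCm38, after read checks in FastQC 0.11.8 and trimming in Trimmomatic (versions 0.36 and 0.38 are both named). For the annotation release, the strand setting of HTSeq and the libraries trimmed by each version, the answer is not given in the sources used here. Left out were 5 summary lines that name no gene. As shares of all counts of a library, these lines included, reads without a feature were 6.79% to 13.13%, ambiguous reads 1.12% to 1.39% and reads not aligned uniquely 4.09% to 6.08%. Of 41388 genes, 40254 had a symbol in GENCODE's mouse annotation for GRCm38.

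All 23 libraries were fitted with edgeR 4.0.16 in R 4.3.3, with TMM scaling, filterByExpr by group, a mean per group and a robust quasi-likelihood test, so that all groups share 1 estimate of the spread. P-values were adjusted by Benjamini-Hochberg over all 17148 genes tested, with 0.05 as the threshold for a call. In air and in LPS with native AAT, a library of 21.4 M or more gene counts makes 1 read worth less than 0.05 CPM. The smallest library of LPS alone, replicate 1102, held 19.7 M. The script was tested on simulated data. GC content and the last digit of the replicate number as a block were alternatives, with DESeq2 1.42.0, other filters and scalings, smaller sets of groups and each library left out.

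The members and the 53 gene lists were chosen with earlier results of these data known. The genes named are the 12 of largest log2 fold change in each direction (average log2 CPM of at least 1, groups not overlapping, no predicted gene), up to 4 members of smallest adjusted p in each list, a fixed panel of inflammatory genes, and the 6 largest in each direction against LPS alone. Other list members, most of them named because they were not called or to complete a short count, were chosen after their values were seen. Promoters and their starts are RefSeq's for GRCm38.p6 and were matched by symbol. A few genes that the rule names are not reported here, and they were left out of the check for libraries apart from their group.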

Additional observations from a re-analysis of the deposited data

Results flagged for a closer look

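Of 148 genes checked among the 5 libraries of LPS with native AAT, 8 had 1 library apart from the other 4 by Dixon's criterion, which chance meets in about 1 in 20 groups. Replicate 4104 was high for Ly6i (19.2 CPM, others 4.51 to 6.8), Isg15 (33.4 CPM, others 13 to 18.1), Ifit1 (52.3 CPM, others 27.1 to 30.4) and Adh7 (9.17 CPM, others 2.9 to 4.54). Replicate 4101 was low for Ms4a7 (6.54 CPM, others 8.17 to 8.38), and replicate 4103 for Il6 (0.0419 CPM, others 0.182 to 0.236). Replicate 4102 was high for Il1r2 (9.47 CPM, others 3.36 to 4.65), and replicate 4105 was low for Tnfaip2 (74 CPM, others 85.2 to 89.1).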

How the results depend on the processing

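Against air, LPS with native AAT had 542 called genes (438 higher, 104 lower) at an adjusted p under 0.01, and 655 to 901 (481 to 653 higher, 153 to 252 lower) with 1 library left out, fewest lower without air replicate 2101. In the other alternatives its counts stayed within 1.5 times, as with DESeq2's Wald test (852 higher, 384 lower). Of 143 called genes among the 151 that the naming rule gave, 105 kept their call in every alternative and none reversed.

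For LPS alone against air, the counts that moved by more were 351 (265 higher, 86 lower) at an adjusted p under 0.01, 354 (268 and 86) in the fit of those 2 groups, 163 lower without the filter, 183 lower with the GC curve removed, 440 lower with the Wald test, and 391 to 904 (274 to 509 higher, 117 to 395 lower) with 1 library left out. Between LPS with native AAT and LPS alone they were 9 (5 and 4) at an adjusted p under 0.01, 50 (34 and 16) without the filter, 41 (27 and 14) in the fit of 3 groups, 16 (7 and 9) in that of 2 groups, 440 (288 and 152) with the Wald test, 51 higher with the GC curve removed, and 20 to 144 (11 to 116 higher, 8 to 41 lower) with 1 library left out. The direct comparison thus rests on the shared estimate of the spread and on single libraries. Of 24 of the genes called there, 4 (Zfp36, Spry4, Ccna2 and Klf10) kept their call in every alternative, and Fkbp5 lost it only at an adjusted p under 0.01.

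With the last digit as a replicate block, LPS with native AAT against air had 998 calls (675 higher, 323 lower), LPS against air 1364 (709 lower), and the direct comparison 248 (180 and 68). Libraries of air and LPS with native AAT with the same digit correlated at 0.167, -0.086 and 0.129. Those of air and LPS alone did so at -0.005, -0.038 and -0.162. Between LPS with native AAT and LPS alone the values were 0.18, 0.11, 0.012, 0.035 and -0.143. The labels' numbers were therefore not taken as a pairing. Low genes such as Il6 and Ly6g are limited by depth.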
